A study of Mus musculus with 35 samples.

Results

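This account concerns 10 genes that regulate or build bone and cartilage: the transcription factors Runx2, Sp7, Sox9, Sox5 and Sox6, and the products Spp1, Ibsp, Alpl, Bglap and Acan. They were taken by name from a table of 21350 genes, and all 10 were found. They were picked as the skeletal side of the response to BMP4, a growth factor of the TGF-beta superfamily.

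The study followed gene expression in mouse cells during factor-induced reprogramming, with Oct4 and the histone demethylase Kdm2b named in its title or design text. Polyadenylated RNA of 35 libraries was sequenced in bulk. All cultures were infected with factors, grown in the reprogramming medium iCD1 and sampled at day 1, 6, 9 or 14. Those treated with BMP4 received 10 ng/ml from the change to that medium on. The factor combinations are called ODR, OA and OB, and at day 9 ODDR and ODB, names that the labels do not spell out. Without BMP4 there were 2 libraries each of ODR, OA and OB at day 1. At day 6 there were 2 of ODR, 3 of OA and 4 of OB, and at day 14 there were 3 of each. With BMP4 there were 1 usable ODR library and 2 OB libraries at day 6. Single libraries came from ODDR and ODB at day 9, from 1 day 9 culture with BMP4, from mouse embryonic stem cells and from mouse embryonic fibroblasts. The starting cells and the origin of the replicates were not given in the sources used here, so the p-values below rest on differences between libraries that could be technical repeats.

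Some features of the table touch every result. Values are the authors' normalized tag counts, written as whole numbers with column totals of 4255921 to 4398785 and a common top value of 18690, which none of the 10 genes reached. They are not read counts, so the depth is unknown and levels are compared within a gene only. The ODR library at day 6 numbered 3 equals ODR with BMP4 number 2 at all 21350 genes, and it was left out of both groups. A second identical pair carries the labels ODDR with BMP4 and ODB with BMP4 at day 9, and it entered no test. Pou5f1, the gene of Oct4, was at 18690 in every infected library except 1 OB library at day 14, at 7086. Kdm2b was 4220 to 18690 in OB libraries and in ODB without BMP4, and 202 to 460 in ODR, OA, ODDR and the day 9 library with BMP4. Kdm2a was 9294 or 18690 in OA libraries apart from the one labelled OA day 14 replicate 2, at 721. That library also held 122 of Smad6, an early BMP target, against 7 and 2 in the other OA libraries at day 14. Results that rest on it are given with and without it.

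As background, mesenchymal progenitors form cartilage or bone under different master regulators. Sox9 starts the cartilage program and acts together with Sox5 and Sox6 on matrix genes such as Acan, which encodes the proteoglycan aggrecan. Runx2 starts the bone program, Sp7 (osterix) acts after it, and both lead to matrix and mineralization genes, with BMP ligands acting on both lineages through Smad proteins. None of the products marks bone alone: osteopontin (Spp1) is also made by macrophages and other cells, and the alkaline phosphatase Alpl is abundant in pluripotent stem cells.

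On mm10, Spp1 (chr5:104435118-104441050, plus strand) and Ibsp (chr5:104299171-104311469, plus strand) lie 123.6 kb apart in a cluster of acidic bone matrix genes. Bglap (chr3:88383501-88384464, minus strand) lies beside its near copies Bglap2 and Bglap3. The transcription factor genes are at chr17:44495987-44814797 for Runx2, chr15:102356606-102367182 for Sp7, chr11:112782224-112787760 for Sox9, chr6:143828425-144781977 for Sox5 and chr7:115470872-116038796 for Sox6. Sox9 is on the plus strand and the other 4 are on the minus strand. Acan (chr7:79053483-79115099, plus strand) and Alpl (chr4:137741733-137796384, minus strand) complete the set. The RefSeq promoter table for GRCm38.p6, the assembly behind mm10, held an entry for 8 of the 10 genes, Runx2, Spp1, Alpl, Ibsp, Bglap, Sox5, Sox6 and Acan. The 250 bases before the start are shown for 3 bone matrix genes, because Spp1 and Ibsp were called higher with BMP4 in OB cultures while Bglap was listed at 0 there. Capitals mark the letters TGTGGT or the reverse complement ACCACA, the core bound by Runx proteins, and TATAAA or TTTATA, the TATA element, searched on both strands.
Spp1, chr5:104434861-104435110, plus strand: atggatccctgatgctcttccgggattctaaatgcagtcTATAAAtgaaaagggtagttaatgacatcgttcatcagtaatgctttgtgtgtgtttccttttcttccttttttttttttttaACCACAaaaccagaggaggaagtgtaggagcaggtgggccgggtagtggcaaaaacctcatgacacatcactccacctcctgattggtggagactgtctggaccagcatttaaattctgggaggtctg
Ibsp, chr5:104299037-104299286, plus strand: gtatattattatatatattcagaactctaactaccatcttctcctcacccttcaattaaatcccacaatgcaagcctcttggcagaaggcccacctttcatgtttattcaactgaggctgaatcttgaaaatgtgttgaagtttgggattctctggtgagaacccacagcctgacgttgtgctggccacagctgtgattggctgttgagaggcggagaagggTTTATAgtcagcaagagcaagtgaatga
Bglap, chr3:88384467-88384716, minus strand: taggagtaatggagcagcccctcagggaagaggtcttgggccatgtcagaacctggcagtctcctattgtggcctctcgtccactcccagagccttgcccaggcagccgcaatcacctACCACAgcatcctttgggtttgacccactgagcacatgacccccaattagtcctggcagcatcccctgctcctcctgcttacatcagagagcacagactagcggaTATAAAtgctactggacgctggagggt
The Runx letters stood 128 bases before the start of Spp1 and 132 bases before that of Bglap, and were absent from this window of Ibsp. They also occurred 80 bases before the start of Runx2. Of 32851 mouse promoters of this length, 14% held these letters and 12.4% held the TATA letters. The TATA letters stood 27 bases before the start of Bglap and, inverted, 28 bases before that of Ibsp. In Spp1 they stood 211 bases before the start. Starts are those of the promoter table, and the windows of Ibsp and Runx2 (chr17:44814628-44814877) lie partly within the gene intervals given above. These are matches of letters, and no binding was measured here.

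The first question was what BMP4 did to the skeletal genes in OB cultures at day 6. Sp7, Sox9, Spp1 and Ibsp rose, Sox5 and Sox6 fell, and Runx2 and Alpl did not pass the test. Values were compared as log2(value + 1) with limma over all 13860 genes with enough signal, and a gene was called at a Benjamini-Hochberg adjusted p below 0.05. In this comparison 15% of all genes tested were called higher with BMP4 and 17.5% lower. Against these shares, 4 members were called higher and 2 lower of the 9 tested. Sp7 entered the test only through libraries with BMP4, so it had to differ. As in every bulk comparison here, fewer cells of a type and less RNA per cell cannot be told apart.

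Sp7, the osteoblast factor that follows Runx2, was 0, 1, 0 and 0 in the 4 OB libraries without BMP4 and 40 and 55 with it. The groups were far apart, and no other group of the series exceeded 4 apart from ODR with BMP4. The log2 fold change was 5.33 ± 0.31 (SE; adjusted p = 6.68e-09). The size of this fold depends on the 1 added before the log, and was 3.31 with 5 added. Runx2, the upstream bone factor, was 180, 136, 152 and 126 without BMP4 and 198 and 177 with it. Those values overlapped, and the log2 difference was 0.35 ± 0.21 (adjusted p = 0.222). Sp7 was thus called and Runx2 was not, but Sp7 had entered the test only through libraries with BMP4. Its call and p-value therefore cannot be set beside those of Runx2, and the difference between these changes was not tested.

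Among the bone products, Spp1 was 1030, 1072, 1597 and 1621 in OB without BMP4 and 2808 and 3500 with it. The groups did not overlap, and the log2 fold change was 1.27 ± 0.32 (adjusted p = 0.00568). Without the second BMP4 library the change was 1.11 and lost its call (adjusted p = 0.0809). Ibsp, the bone sialoprotein gene, was 7, 8, 8 and 0 without BMP4 and 37 and 28 with it. It rose by 2.72 ± 0.97 on the log2 scale (adjusted p = 0.0386), and 8 of 16 alternatives lost this call, among them the removal of either BMP4 library (adjusted p = 0.176 and 0.131) or of the OB library at 0 (1.94, adjusted p = 0.105). Alpl, which releases phosphate for mineral, was 356, 328, 298 and 390 without BMP4 and 452 and 440 with it. Its groups did not overlap, yet the difference of 0.39 ± 0.57 stayed within the spread pooled over all groups (adjusted p = 0.647). Bglap, the osteocalcin gene made by mature osteoblasts, was listed at 0 in all of these libraries.

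The 3 Sox genes did not move together. Sox9 was 43, 40, 26 and 19 in OB without BMP4 and 241 and 148 with it, a log2 fold change of 2.60 ± 0.65 (adjusted p = 0.00506). Without the first BMP4 library it was 2.25 (adjusted p = 0.0683). Sox5 was 60, 32, 47 and 42 without BMP4 and 11 and 12 with it, and fell by 1.85 ± 0.35 on the log2 scale (adjusted p = 0.000633). This call stood in all 16 alternatives. Sox6 was 14, 13, 17 and 24 without BMP4 and 7 in both libraries with it. Its drop of 1.13 ± 0.38 on the log2 scale (adjusted p = 0.0311) lost its call in 7 of 16 alternatives, including the removal of the OB library at 17 or at 24 (adjusted p = 0.052 and 0.0801) or of either BMP4 library (0.125 and 0.141). The 2 genes known as partners of Sox9 in cartilage were thus lower in the libraries where Sox9 was higher. Acan was 2, 0, 0 and 4 without BMP4 and 5 and 3 with it, at the bottom of the scale and not called (log2 difference 1.32 ± 0.53, adjusted p = 0.0667). It entered the test only through day 1 libraries, and it passed the threshold without the OB library at 2 or at 4 (adjusted p = 0.0478 and 0.00876).

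**Figure D1:**
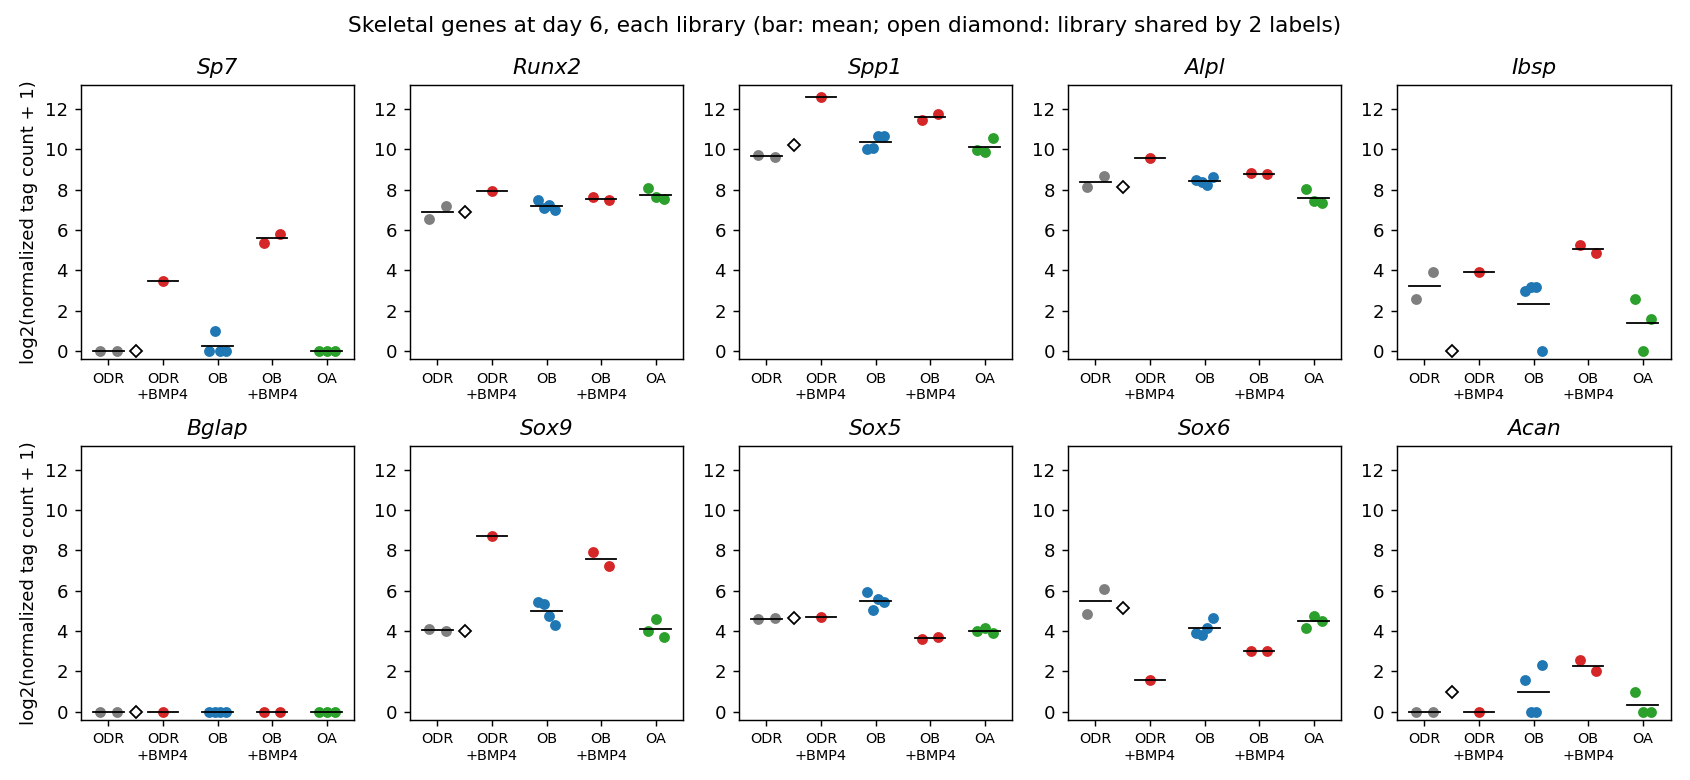
Each panel shows 1 gene at day 6, with log2(normalized tag count + 1) on the vertical axis, 1 point per library and a bar at the mean of the log2 values. Libraries with BMP4 are red, and the open diamond is the library deposited under ODR both with and without BMP4, which entered no mean. Sp7 and Sox9 are highest in the red points, Sox6 is lowest there, and Bglap is at 0 throughout.

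In ODR cultures the same question rests on 1 library with BMP4 and 2 without, and the fit assumes that the lone library varies like the other groups. Sp7, Sox9, Spp1 and Runx2 were called higher and Sox6 lower. The shares over all genes tested were 5.06% higher and 6.46% lower. Of the 9 members tested, 4 were called higher and 1 lower. Sp7 is among the 4, and it entered the test only through libraries with BMP4, so it was not free to fall.

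Sox9 was 16 and 15 in ODR and 420 in ODR with BMP4, the highest value of this gene in any library. Its log2 fold change was 4.67 ± 0.92 (adjusted p = 0.00319). Spp1 was 850 and 787 against 6251, also its highest value, a log2 fold change of 2.93 ± 0.46 (adjusted p = 0.00068). Both genes thus peaked in the same library. Sp7 was listed at 0 in both ODR libraries and was 10 with BMP4 (adjusted p = 0.000137), and no fold is given against a group at 0. Runx2 was 94 and 144 against 240, and rose by 1.04 ± 0.30 (adjusted p = 0.0295), a call lost without the first ODR library (0.73, adjusted p = 0.182). Sox6 was 28 and 67 against 2, its lowest value in any culture, and fell by 3.89 ± 0.54 on the log2 scale (adjusted p = 0.000283).

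The other members were not called in ODR. Sox5, which acts as a pair with Sox6, was 23 and 24 against 25 (log2 difference 0.09 ± 0.50, adjusted p = 0.957). Alpl was 280 and 404 against 760 (1.17 ± 0.80, adjusted p = 0.409). Ibsp was 5 and 14 against 14, with overlap (0.66 ± 1.37, adjusted p = 0.834). Acan and Bglap were listed at 0 in all 3 libraries. The library deposited under both ODR labels read 15 for Sox9, 1187 for Spp1, 0 for Sp7, 118 for Runx2 and 35 for Sox6. Its Sox9, Sp7, Runx2 and Sox6 lay at the values of ODR without BMP4. Its Smad6 was listed at 0, as in those libraries, against 662 in the other ODR library with BMP4. Its Spp1 was above both ODR libraries without BMP4, and its Ibsp, listed at 0, was below them. Its Bglap2 was also listed at 0, as in the other ODR library with BMP4, against 4 and 6 in ODR without BMP4. Kept as a BMP4 library, alone or under both labels, it left 0 members called in this comparison (limma; 4 at an unadjusted p below 0.05 either way). When only the ODR libraries were fitted, 0 were called (limma; 3 at an unadjusted p below 0.05).

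Whether BMP4 acted differently in OB and ODR was asked with an interaction term, in which 1.26% of all genes were called, 0.714% with a higher and 0.541% with a lower effect in OB. Sox6 was the 1 member called: its BMP4 effect was higher by 2.76 ± 0.67 on the log2 scale in OB than in ODR (adjusted p = 0.0494). This stood barely past the threshold and lost its call in 13 of 18 alternatives (adjusted p from 0.0106 to 0.733 over all 18). The size itself depended on the ODR library at 67, and was 2.14 without it (adjusted p = 0.229). The library labelled OA day 14 replicate 2 enters this comparison only through the pooled spread, and without it Sp7, Spp1, Sox5 and Sox6 were called. Sox5 fell in OB and not in ODR, but the difference of -1.94 ± 0.61 was not called (adjusted p = 0.156). For Spp1 the difference was -1.66 ± 0.56 (adjusted p = 0.194) and for Sox9 -2.08 ± 1.12 (adjusted p = 0.554). Runx2, called in ODR only, differed by -0.69 (adjusted p = 0.524). Between the treated cultures themselves, where 2.26% of genes were called, 1.46% higher and 0.794% lower in OB, Sp7 was the 1 member called. Sp7 entered the test only through libraries with BMP4, and the OB libraries alone met the filter, so this was not a free test. It was 40 and 55 in OB with BMP4 against 10 in ODR with BMP4, a log2 fold change of 2.12 ± 0.44 (adjusted p = 0.016). Without the second OB library it was 1.90 (adjusted p = 0.154).

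**Figure D2:**
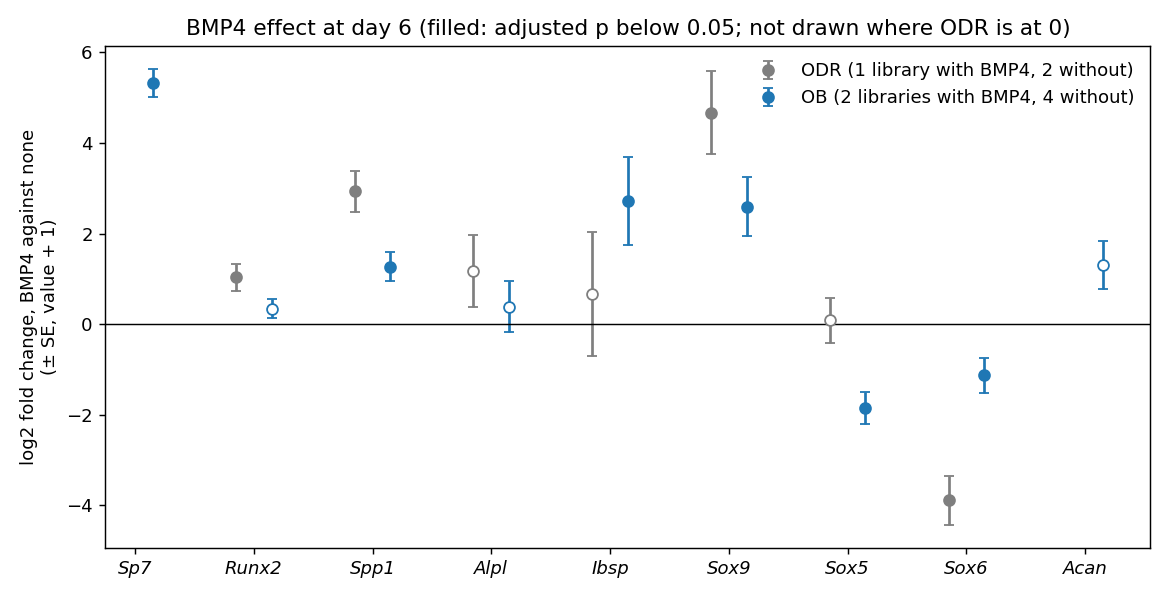
Points are log2 fold changes of BMP4 against none at day 6, on log2(value + 1), with bars of 1 SE from the limma fit. Grey is ODR and blue is OB, and filled points passed an adjusted p of 0.05. Sp7 and Acan are not drawn for ODR, where the libraries without BMP4 are at 0. Sox9 and Spp1 are above the zero line and Sox6 below it in both cultures, while Sox5 is below it in OB alone.

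The wider skeletal lists did not move as a block. Of 30 osteoblast genes, 25 were tested, and in OB 8 rose and 8 fell with BMP4, with a median log2 change of -0.09 against -0.02 over all genes. Over all genes 15% rose and 17.5% fell. In ODR 5 rose and 2 fell (median 0.00, as over all genes), where 5.06% of all genes rose and 6.46% fell. Sost, the sclerostin gene normally made by osteocytes, was 0, 0, 1 and 0 in OB and 220 and 174 with BMP4 (log2 fold change 7.37 ± 0.67, adjusted p = 8.41e-07). In ODR it was listed at 0 in both libraries and was 383 with BMP4 (adjusted p = 3.37e-05). Lrp5, a Wnt co-receptor that sclerostin blocks, rose by 2.01 ± 0.19 in OB and 1.86 ± 0.27 in ODR on the log2 scale (adjusted p = 1.33e-06 and 0.000413). Msx2, a homeobox gene of skull bone, rose by 5.30 ± 0.88 in OB (adjusted p = 0.000192). On the other side, Tnfsf11, the RANKL ligand that drives osteoclast formation, fell by 2.82 ± 0.31 in OB (adjusted p = 4.41e-06). Its decoy receptor Tnfrsf11b fell by 0.98 ± 0.20 (adjusted p = 0.00126), and Twist1, an antagonist of Runx2, fell by 1.48 ± 0.17 (adjusted p = 6.14e-06). Dmp1, an osteocyte matrix gene, was listed at 0 in every culture.

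Of 29 chondrocyte genes in the table, 17 were tested. In OB 3 rose and 3 fell with BMP4 (median 0.00), and in ODR 1 rose and 1 fell (median 0.22). The shares over all genes were 15% and 17.5% in OB and 5.06% and 6.46% in ODR. Col9a1, a cartilage collagen, rose from a mean of 18.75 to 93.5 in OB (log2 fold change 2.36 ± 0.57, adjusted p = 0.00379). Col11a1 fell by 1.03 ± 0.22 (adjusted p = 0.00181) and Matn2 by 2.35 ± 0.68 (adjusted p = 0.0135). The defining cartilage gene Col2a1 was 15, 15, 25 and 22 in OB and 22 and 33 with BMP4, with overlap. In the mineral list, of 9 genes tested, 1 rose and 1 fell in OB, and 0 rose and 1 fell in ODR. The gene that fell was Enpp1 in both: it makes pyrophosphate, an inhibitor of mineral, and went from a mean of 7440 to 404 in OB (log2 fold change -4.21 ± 0.32, adjusted p = 1.38e-07) and from 1350 to 326 in ODR (-2.03 ± 0.45, adjusted p = 0.00734).

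Most genes of BMP signalling itself rose. Over all genes tested, 15% were called higher and 17.5% lower with BMP4 in OB, and 5.06% and 6.46% in ODR. Of 10 receptors and signalling Smads, 7 rose and 0 fell in OB, and 6 rose and 1 fell in ODR, with median log2 changes of 1.16 and 1.35. Of 15 direct BMP targets, 14 rose and 1 fell in OB (median 4.27), and 11 rose and 0 fell in ODR (median 4.01). The 1 target that fell in OB was Grem1, a secreted BMP antagonist (-2.04 ± 0.60, adjusted p = 0.0139). The inhibitory Smad7 rose by 3.85 ± 0.35 in OB (adjusted p = 8.41e-07) and 2.89 ± 0.50 in ODR (adjusted p = 0.00133). These lists were compiled with earlier results of these data known.

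Markers of other cells moved with BMP4 too, and their part in the skeletal values was not tested except as measured here. The counts below stand beside 15% of all genes called higher and 17.5% lower in OB, and 5.06% and 6.46% in ODR. Summed over 8 fibroblast markers, OB was 14698 to 24846 and OB with BMP4 4964 to 5316, with 5 of 8 genes called lower and 1 higher. In ODR that sum was 10514 to 15367, and 5186 with BMP4, with 2 lower and 1 higher. The 5 epithelial markers summed to 52 to 84 in OB and 400 to 939 with BMP4, all 5 called higher, while ODR was 21 to 48 and 38 with BMP4, with 0 called (limma; 0 at an unadjusted p below 0.05). The 10 osteoclast and macrophage markers, cells that also make Spp1, summed to 569 to 894 in OB and 670 to 745 with BMP4. Of 7 tested, 2 fell and 0 rose, and Acp5 and Cd68 were the genes that fell, while the fusion gene Dcstamp was listed at 0 in all of these libraries. In ODR the sum was 1117 to 1541, and 1307 with BMP4, and Acp5 and Cd68 were again the 2 that fell. The 7 neural crest and glial markers, cells that also use Sox9 and Sox5, summed to 301 to 367 in OB and 364 to 382 with BMP4, and to 93 to 96 and 157 in ODR. The 10 pluripotency markers, of cells rich in Alpl, summed to 55 to 100 in OB and 197 to 305 with BMP4, against 16936 in the stem cell library. In ODR the sum was 4 to 11, and 49 with BMP4. Of 4 tested, 2 rose and 0 fell in OB, and 1 rose and 0 fell in ODR.

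The other marker lists moved as well, beside the same shares of all genes (15% higher and 17.5% lower in OB, 5.06% and 6.46% in ODR). The 7 neural progenitor markers summed to 712 to 850 in ODR and 1352 with BMP4. Of 6 tested, Sox21, Fabp7 and Pax6 rose and Nes fell in ODR, with a median log2 change of 2.52. In OB the sum was 1804 to 2387 without and 1319 to 1596 with BMP4, where Fabp7 rose and Nes fell. The 5 muscle markers summed to 1896 to 1987 in OB and 380 to 386 with BMP4, and both genes tested, Des and Actc1, fell. In ODR the muscle sum was 216 to 298, and 116 with BMP4, with 0 called (limma; 0 at an unadjusted p below 0.05). The 4 tendon markers summed to 228 to 512 in OB and 198 to 209 with BMP4, and to 337 to 509 and 159 in ODR, and Mkx rose in OB. The 6 adipocyte markers summed to 88 to 107 in OB and 127 to 194 with BMP4, and to 194 to 205 and 109 in ODR. Of these, Pparg rose in OB and Fabp4 fell in both cultures. The part of these lists in the skeletal values was not tested.

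Without BMP4, ODR and OA had more members called from day 1 to day 6 than from day 6 to day 14. The same held for all genes there, while in OB a larger share of all genes was called later, 55% against 33.8%. Between day 1 and day 6, Runx2 fell and Alpl rose in all 3 factor combinations, while Acan and Sp7 were called lower in all 3. Over all genes, 25.1% were called in ODR (12.6% higher and 12.5% lower), 34.6% in OA (17% and 17.6%) and 33.8% in OB (16.7% and 17.1%). Of the 9 members tested, 2 were called higher and 4 lower in ODR, 1 and 3 in OA, and 1 and 5 in OB. The lower counts include Acan in all 3, which entered the test only through day 1 libraries and so was not free to rise.

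Runx2 was 541 and 426 at day 1 in ODR, 662 and 498 in OA and 703 and 680 in OB. At day 6 its highest value was 144 in ODR, 274 in OA and 180 in OB, so no day 6 library reached a day 1 library. It fell by 2.04 ± 0.24, 1.42 ± 0.22 and 2.22 ± 0.21 on the log2 scale (adjusted p = 1.14e-05, 9.27e-05 and 4.45e-07). Alpl went the other way. It was 9 and 5 at day 1 in ODR and 11 and 2 in OA, but 114 and 29 in OB. At day 6 it was 280 and 404 in ODR, 160 to 264 in OA and 298 to 390 in OB. The log2 rises were 5.45 ± 0.65 in ODR (adjusted p = 1.27e-05), 5.02 ± 0.60 in OA (adjusted p = 6.15e-06) and 2.54 ± 0.57 in OB (adjusted p = 0.0021). Without the OB library at 29 the last was 1.57 (adjusted p = 0.0994). The pluripotency markers summed to 4 to 11 in ODR, 7 to 10 in OA and 55 to 100 in OB at day 6, and their part in Alpl was not tested.

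The cartilage genes Acan, Sox9 and Sox6 were lower at day 6 in some or all combinations. Acan was 9 and 10 at day 1 in ODR, 7 and 11 in OA, and 14 and 22 in OB. At day 6 it was listed at 0 in both ODR libraries, at 0 or 1 in OA and at 0 to 4 in OB (adjusted p = 0.000592, 0.000552 and 0.000158). Since Acan passed the filter only through these day 1 libraries, it had to be lower elsewhere. Col2a1, a cartilage collagen gene named after its values were seen, was 159 to 708 at day 1 and 1 to 25 at day 6 over all 3 combinations. Sox9 was 138 and 116 at day 1 in OB and 19 to 43 at day 6, a drop of 2.02 ± 0.65 on the log2 scale (adjusted p = 0.0222). That call was lost without either day 1 library (adjusted p = 0.124 and 0.0892) or without the lowest OB library at day 6 (0.0545). Sox9 in ODR was 56 and 50 at day 1 and 16 and 15 at day 6, and was not called (-1.71 ± 0.75, adjusted p = 0.106). In OA it was 50 and 46 at day 1 and 12 to 23 at day 6, and was not called either (-1.52 ± 0.68, adjusted p = 0.0944). The library labelled OA day 14 replicate 2 enters these comparisons only through the pooled spread. Without that library Sox9 was called lower at day 6 in both ODR and OA. Sox6 in OB was 50 and 36 at day 1 and 13 to 24 at day 6, and fell by 1.31 ± 0.38 (adjusted p = 0.0135), which was lost without the first day 1 library (adjusted p = 0.135).

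The remaining day 1 to day 6 calls were small. Sp7 went from values of 1 to 4 at day 1 to 0 or 1 at day 6 (adjusted p = 0.0127, 0.000177 and 6.46e-05 for ODR, OA and OB). The ODR call was lost without the first day 1 library or either day 6 library (adjusted p from 0.0593 to 0.126). In ODR, Ibsp was listed at 0 at day 1 and was 5 and 14 at day 6 (adjusted p = 0.0408). Spp1 was 1699 in both day 1 libraries and 850 and 787 at day 6, a drop of 1.05 ± 0.37 (adjusted p = 0.0455). Neither call survived the loss of any 1 of the 4 libraries (adjusted p from 0.0628 to 0.231 for Ibsp and from 0.119 to 0.167 for Spp1).

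Between day 6 and day 14 the combinations differed. In ODR 3.95% of all genes were called (2.27% higher and 1.68% lower) and 0 members (limma), with 1 member, Spp1, at an unadjusted p below 0.05. Its values were 460, 399 and 520 at day 14. In OA 8.14% of genes were called (4.05% higher and 4.08% lower), and Sox6 was the 1 member called: it was 17, 26 and 22 at day 6 and 17, 4 and 8 at day 14, with overlap (log2 fold change -1.26 ± 0.36, adjusted p = 0.0393). Without the library labelled OA day 14 replicate 2 it was -0.81 (adjusted p = 0.155). Without any 1 of 3 other OA libraries it lost its call as well (adjusted p from 0.0612 to 0.145).

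In OB 55% of all genes were called over these days, 26.8% higher and 28.2% lower. Of the members, 2 were called higher and 3 lower, a share near that of all genes. Spp1 was 1030 to 1621 at day 6 and 198, 224 and 312 at day 14, a drop of 2.43 ± 0.28 on the log2 scale (adjusted p = 1.49e-06). The osteoclast and macrophage markers, cells that also make Spp1, summed to 569 to 894 at day 6 and 294 to 598 at day 14. Of 7 tested, 5 were called lower and 1, Mmp9, higher (median -1.99), and their part in the drop of Spp1 was not tested. Runx2 was 126 to 180 at day 6 and 44, 39 and 49 at day 14, the lowest of any culture, and fell by 1.73 ± 0.18 (adjusted p = 5.56e-07). The calls of Spp1 and Runx2 stood in all 17 alternatives. Alpl was 80, 182 and 202 at day 14, below every day 6 library (-1.25 ± 0.50, adjusted p = 0.0418). Its call was lost without any 1 of the 4 day 6 libraries (adjusted p from 0.0543 to 0.0808) or the lowest day 14 library (0.226). Sox6 was 32, 37 and 34 at day 14 and rose by 1.01 ± 0.34 (adjusted p = 0.0172), which was lost without the second day 14 library (0.0525). Sp7 was 2, 1 and 1 against 0 or 1 at day 6 (adjusted p = 0.00684), a difference at the floor of the scale that was lost without the library at 2 (adjusted p = 0.051).

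**Figure D3:**
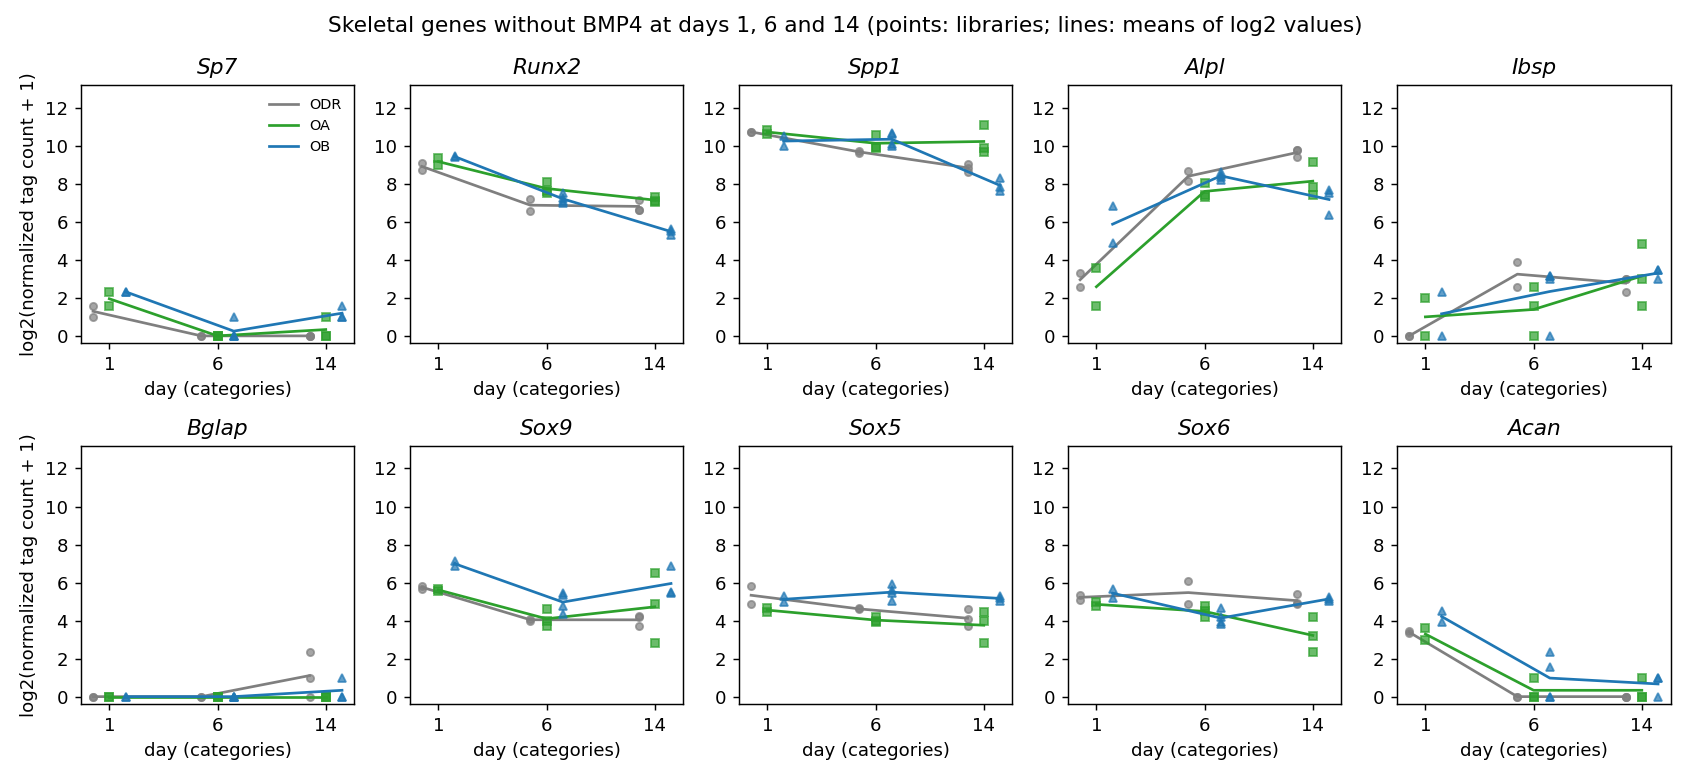
Each panel shows 1 gene in cultures without BMP4 at day 1, 6 or 14, which are set as evenly spaced categories, with log2(normalized tag count + 1) on the vertical axis. Points are libraries and lines join the means of the log2 values for ODR (grey), OA (green) and OB (blue). Runx2 drops and Alpl climbs from day 1 to day 6 in all 3, and at day 14 Runx2 and Spp1 are lowest in OB.

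The factor combinations were then compared on the same day. At day 14, OB and ODR differed in 54.7% of all genes, 28% higher and 26.7% lower in OB. Among 9 members tested, 3 were called higher and 3 lower, which is close to these shares. Runx2 was 98, 99 and 142 in ODR and 44, 39 and 49 in OB (log2 fold change -1.33 ± 0.20, adjusted p = 1.85e-05). Alpl was 670, 861 and 877 in ODR and 80, 182 and 202 in OB (-2.47 ± 0.53, adjusted p = 0.000728). These bone genes were apart in every library, and both calls held in all 16 alternatives. The alkaline phosphatase gene was lower where the pluripotency markers were higher: they summed to 6 to 9 in ODR and 1008 to 1054 in OB. Their part in the Alpl values was not tested. Spp1 was 460, 399 and 520 in ODR and 198, 224 and 312 in OB (-0.93 ± 0.30, adjusted p = 0.0149). That call was lost without the ODR library at 520 (adjusted p = 0.0538) or the OB library at 198 (0.0676). The osteoclast and macrophage markers summed to 689 to 997 in ODR and 294 to 598 in OB, with 3 of 7 called lower and 1 higher in OB, and their part in this difference was not tested.

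On the cartilage side at day 14, Sox9 was 18, 17 and 12 in ODR and 116, 45 and 43 in OB (log2 fold change 1.91 ± 0.61, adjusted p = 0.0129). Without the OB library at 116 it was 1.45 (adjusted p = 0.0797). Sox5 was 12, 23 and 16 in ODR and 32, 35 and 38 in OB (1.04 ± 0.33, adjusted p = 0.0125), lost without the ODR library at 12 (0.83, adjusted p = 0.066). Sox6 was 28 to 41 in ODR and 32 to 37 in OB and did not separate them (0.09, adjusted p = 0.859). Sp7 was 2, 1 and 1 in OB and listed at 0 in ODR (adjusted p = 0.00201). Among the wider cartilage genes, 5 of 17 tested were higher in OB and 2 lower, beside 28% and 26.7% of all genes tested. Col2a1 was 330, 388 and 352 in OB against 0, 0 and 2 in ODR (log2 fold change 7.95 ± 0.72, adjusted p = 9.27e-08). Of 25 osteoblast genes 3 were higher and 9 lower, and of 9 mineral genes 0 were higher and 4 lower (median log2 differences -0.51 and -0.79, against 0.01 over all genes). Tnfrsf11b fell by 2.28 ± 0.19 and Sparc, osteonectin, by 1.28 ± 0.19 from ODR to OB (adjusted p = 4.39e-08 and 2.07e-05). The 5 epithelial markers held 4 called higher in OB, and of 8 fibroblast markers 1 was higher and 2 lower.

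Earlier days gave few member differences between OB and ODR. At day 1, with 0.88% of genes called (0.642% higher and 0.238% lower in OB), Alpl was the 1 member called, at 114 and 29 in OB against 9 and 5 in ODR (2.92 ± 0.65, adjusted p = 0.041). It lost its call without either ODR library (adjusted p = 0.105 and 0.313) or the OB library at 114 (0.557). At day 6, with 10.5% of genes called (5.74% higher and 4.81% lower), Sox6 was the 1 member called, at 14, 13, 17 and 24 in OB against 28 and 67 in ODR (-1.34 ± 0.38, adjusted p = 0.0319). Without the ODR library at 67 it was -0.73 (adjusted p = 0.471), and without the OB library at 14, 13 or 17 it was not called either (adjusted p from 0.058 to 0.0721).

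Against ODR, OA differed in 0.0649% of all genes at day 1 (0.0289% higher and 0.0361% lower) and in 0 members (limma; 0 at an unadjusted p below 0.05). At day 6, where 2.22% of genes were called (1.34% higher and 0.88% lower), Runx2 was 274, 196 and 184 in OA and 94 and 144 in ODR (0.88 ± 0.22, adjusted p = 0.0428). No library overlapped, but the call was lost on removing any 1 of the 5 libraries (adjusted p from 0.0557 to 0.414). At day 14, where 5.35% were called (2.82% higher and 2.53% lower), Spp1 was 828, 2222 and 932 in OA (1.39 ± 0.30, adjusted p = 0.0114) and Sox6 17, 4 and 8 (-1.83 ± 0.36, adjusted p = 0.00639). The extreme value of each is the library labelled OA day 14 replicate 2. Without it the changes were 0.94 (adjusted p = 0.0342) and -1.38 (adjusted p = 0.0216). Alpl was 168, 572 and 230 in OA and 670 to 877 in ODR, without overlap. It was not called (-1.50 ± 0.53, adjusted p = 0.116). The value of 572 is the library labelled OA day 14 replicate 2, and without that library Alpl was called lower in OA. Spp1 also lost its call without the ODR library at 399 (adjusted p = 0.0585).

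Against OA, OB differed at day 1 in 1.4% of all genes (1.01% higher and 0.39% lower) and in Alpl among the members, at 114 and 29 against 11 and 2 (3.29 ± 0.65, adjusted p = 0.0145). That call was lost without the OA library at 2 (2.29, adjusted p = 0.225) or the OB library at 114 (2.32, adjusted p = 0.281). At day 6, where 7.28% were called (3.92% higher and 3.35% lower), Sox5 was 60, 32, 47 and 42 in OB and 15, 17 and 14 in OA (1.47 ± 0.31, adjusted p = 0.00658), and all 17 alternatives kept this call. At day 14, where 51.7% of genes were called, 26.5% higher and 25.2% lower, 3 members were higher and 2 lower in OB. The log2 fold change was -1.66 ± 0.20 for Runx2 and -2.31 ± 0.30 for Spp1 (adjusted p = 2.36e-06 and 6.74e-06). Sox5 was higher by 1.41 ± 0.33 (adjusted p = 0.00166) and Sox6 by 1.92 ± 0.36 (adjusted p = 0.000249). Without the library labelled OA day 14 replicate 2, Runx2 was at -1.70, Spp1 at -1.87, Sox5 was higher by 0.94 and Sox6 by 1.47, all still called. With that library Sox9 was not called (1.23 ± 0.61, adjusted p = 0.103), and its groups overlapped. Without it Sox9 was called higher in OB. Sp7 was higher by 0.86 ± 0.29 (adjusted p = 0.0193), but at values of 1 or 2 against 0 or 1, with overlap. Without the library labelled OA day 14 replicate 2 it was higher by 1.20 (adjusted p = 0.00182). Its call was lost without either OA library at 0 (adjusted p = 0.0823 and 0.0874) or the OB library at 2 (0.102).

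Bglap could not be tested. It was listed at 0 in 24 of the 27 libraries of the fit and was at most 4, in ODR at day 14. Its neighbour Bglap2 was 14, 14 and 11 in ODR at day 14, 0 or 1 in OA and OB on that day, and 29 in ODDR at day 9. In both cultures at day 6 it was listed at 0 with BMP4, against 4 and 6 in ODR and 1 or 2 in OB. Bglap3 ranged from 2 to 52 in the cultures and was 164 in stem cells. These genes are near copies, so how reads were split among them is uncertain.

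Single libraries carry no replicate check and were not tested. At day 9 the library with BMP4, labelled both ODDR and ODB, held 5091 of Spp1 against 1754 in ODDR and 513 in ODB without BMP4. Alpl was 772 there against 422 and 152, Ibsp 22 against 7 and 10, and Sp7 2 against 0 and 0. Sox6 was 5 against 26 and 29, and Sox5 9 against 17 and 10. Sox9, at 241, lay between ODB at 132 and ODDR at 246, so Sox9 was not above both untreated day 9 libraries. Sost was 32 against 0 and 0. Which of the 2 labels the treated library belongs to cannot be told from its labels, and its Kdm2b was 239, against 18690 in ODB without BMP4.

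The reference libraries gave the members' values in 2 known cell types. Embryonic fibroblasts held 350 of Runx2, 2808 of Spp1, 73 of Sox9, 72 of Sox6, 20 of Sox5 and 21 of Acan, but only 4 of Alpl, 4 of Ibsp and 0 of Sp7 and Bglap. Stem cells held 2214 of Alpl, above every culture, and 2808 of Spp1, but only 8 of Runx2, 13 of Sox6, 1 of Sox5 and 0 of Sox9 and Sp7. Acan was 23 there. Spp1 has the same value, 2808, in both references and in 1 OB library with BMP4. The order of Sp7 over the groups was OB with BMP4, ODR with BMP4, then all others at 4 or below.

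**Figure D4:**
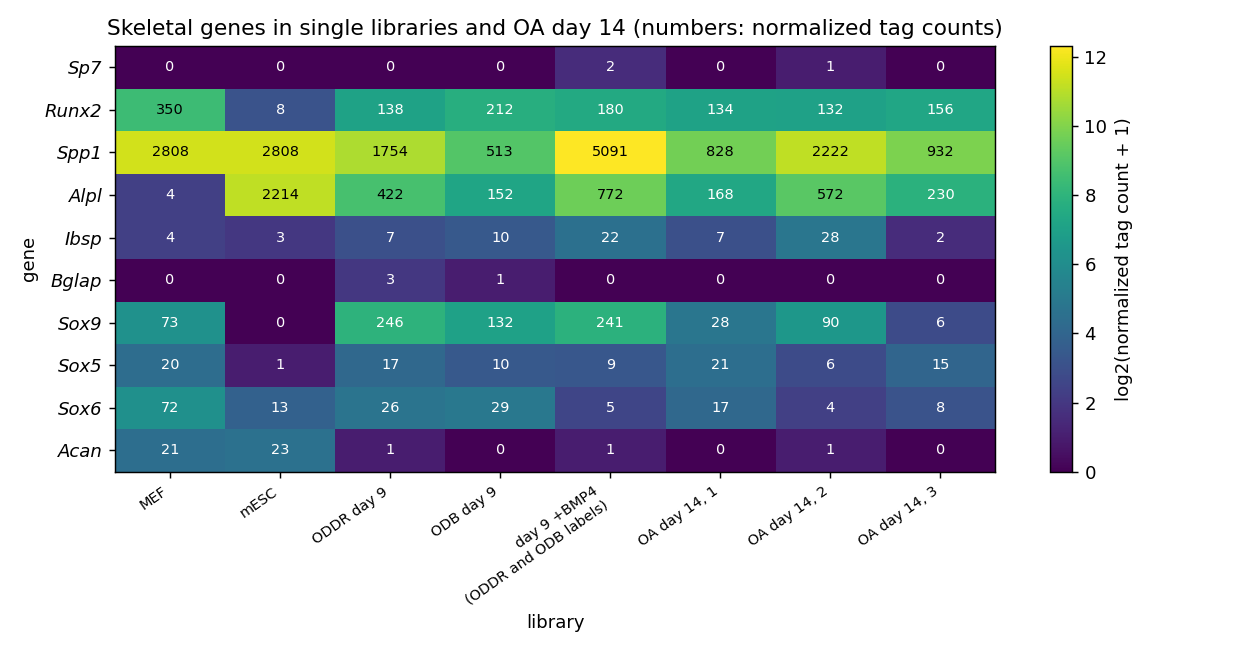
The map shows the 10 genes (rows) in libraries without replicates and in the 3 OA libraries at day 14 (columns), coloured by log2(normalized tag count + 1) with the normalized tag count written in each field. The day 9 library with BMP4 holds the highest Spp1 of the map, 5091, and stem cells the highest Alpl, 2214. The second OA library differs from the other two in Spp1, Sox9, Ibsp and Sox6.

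The library labelled OA day 14 replicate 2 differed from its group in several members. It held 2222 of Spp1 against 828 and 932, 90 of Sox9 against 28 and 6, 28 of Ibsp against 7 and 2, and 572 of Alpl against 168 and 230. Sox6 was 4 against 17 and 8, and Sox5 6 against 21 and 15. Msx2 was 168 against 7 and 4, and Sost 12 against 0 and 0. Its Sp7 was 1.

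Across the 11 groups of the fit, the members did not share 1 pattern. Pearson's r over the group means of log2 values was 0.88 between Sp7 and Sox9, 0.79 between Alpl and Ibsp and 0.78 between Runx2 and Acan. It was -0.77 between Alpl and Acan and -0.72 between Spp1 and Sox6, and Runx2 and Sp7 gave 0.30. These are descriptions over 11 points that share the same libraries and normalization. Sp7 passed the filter only through libraries with BMP4, and Acan only through day 1 libraries. Their correlations and nearest genes therefore largely restate which groups admitted them. Without the library labelled OA day 14 replicate 2 the same pairs gave 0.88, 0.78, 0.77, -0.76, -0.72 and 0.30. Among 9528 genes of sufficient level, those most like Sp7 were Skil (r = 0.967), Mars2 (0.962) and Larp1b (0.961), and most like Sox9 were Trib2 (0.964), Fzd1 (0.951) and Mboat2 (0.947). Runx2 was nearest to Ostf1 (0.985), Cryab (0.969) and S100a4 (0.967), and Acan to Limk1 (0.963), Mapkapk2 (0.961) and Dnajb6 (0.958). Spp1 was nearest to Pde8a (0.967), Acsl5 (0.958) and Cyp1b1 (0.948), and Ibsp to Apcdd1 (0.937), Capn5 (0.925) and Sycp1 (0.917). Alpl was nearest to Pou3f1 (0.965), Tnfrsf21 (0.964) and Kit (0.963). For Sox6 the nearest genes were Lin7a (0.941), Fgfr1 (0.94) and Ube2r2 (0.929), and for Sox5 they were Trub2 (0.901), Dmap1 (0.859) and Haghl (0.82). Without the library labelled OA day 14 replicate 2, 20 of these 27 genes were still among the nearest 3, and their r ranged from 0.803 to 0.985.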

How the data were processed

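The deposited table holds, for 21350 genes and 35 libraries, the authors' normalized tag count score per gene as whole numbers. Per the submitters' processing notes, bcl2fastq, Bowtie2 2.2.5 and RSEM were used with build mm10, while the normalization step is not named by any source used here. Because these are not raw counts, the depth and counting error are unknown.

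Values were analysed as log2(value + 1). A gene was tested if 2 or more libraries held a value of 10 or more, which 13860 genes did. A model with a mean for each of 11 groups was fitted to 27 libraries with limma 3.58.1 in R 4.3.3 (16 residual degrees of freedom, no block), giving 19 comparisons. Tests are two-sided and adjusted by Benjamini-Hochberg over all genes of a comparison. Libraries with identical columns were left out, and single libraries were not tested. The script was tested on simulated data.

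All 10 genes are named, with up to 3 called genes per direction, by adjusted p, of each further list, and for each tested member the 3 genes of highest Pearson correlation over group means, among genes with a mean of at least 50. Sost and Msx2 in single libraries, Col2a1, Dmp1, Dcstamp, Smad6, Bglap2 and Bglap3 were named after their values were seen. The members and lists were chosen with earlier results of these data known. Positions are from GENCODE for mm10 and promoters from RefSeq. Alternatives were another pseudocount (5), no filter, another moderation, rescaling, fits of only the groups compared, the identical libraries kept, a replicate block and leaving out each library. The correlations without the library labelled OA day 14 replicate 2 were added after seeing the data.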

Additional observations from a re-analysis of the deposited data

Results flagged for a closer look

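Ibsp in OB at day 6 had 1 library at 0 beside 7, 8 and 8, a gap of 0.875 of the group's range. Sp7 in the same group had 1 library at 1 beside 0, 0 and 0, a gap of 1 of the range that amounts to a single unit of the scale. The rate of about 5% for such gaps by chance holds for continuous, normally distributed values. These are whole numbers near 0, so that rate does not apply to them.

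The BMP4 effect on Sox6 differed between OB and ODR by 2.76 on the log2 scale in the test of the difference itself (limma, adjusted p = 0.0494, and 0.0106 to 0.733 over 18 alternatives).

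In the day 9 library with BMP4, which no comparison used, 4 members were above both day 9 libraries without BMP4. Spp1 was 5091, Alpl 772, Ibsp 22 and Sp7 2. The difference was not tested, since there is 1 library per label.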

How the results depend on the processing

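Column totals were already close, at 4255921 to 4398785, with a common top value, so rescaling to a common upper quartile was a weak check. Neither it nor a pseudocount of 5 moved a count of members called by over 1.5 times. Yet with a pseudocount of 5 Sox6 lost its call for the difference of BMP4 effects (1.95, adjusted p = 0.0737) and Sp7 gained one (1.73, adjusted p = 0.000494). No alternative moved a count that far for BMP4 in OB, OB against OA at day 14, or day 1 to day 6 in OA and OB, apart from leaving out a library. Of 876 alternative values of named members, 715 kept their direction and side of the threshold, 156 lost it, 3 gained it and 2 reversed. The reversed values are Ibsp under BMP4 in ODR, -0.21 with the identical library kept under both labels and -1.29 with it kept only with BMP4. Members called in ODR with BMP4 went from 5 to 0 in both of these fits and with only the groups compared. With only the groups compared, 1 went to 0 for the difference of BMP4 effects, for OB against ODR with BMP4 and at days 1 and 6, for OA against ODR at day 6, for OB against OA at day 1 and for OA from day 6 to day 14, 2 went to 0 for OA against ODR at day 14, and 1 went to 2 for OB against OA at day 6. With the identical library under both labels, 1 went to 0 for OB against ODR at days 1 and 6 and for OA from day 6 to day 14, 2 to 0 for OA against ODR at day 14, 6 to 3 for OB against ODR at day 14 and ODR from day 1 to day 6, 5 to 3 for OB from day 6 to day 14, and 1 to 2 for the difference of BMP4 effects. Kept only with BMP4, it gave the same values apart from 2 for OB from day 6 to day 14, 0 for OA against ODR at day 6 and 1 for the difference of BMP4 effects, where Sp7 was called in place of Sox6. Kept only without BMP4, it moved ODR from day 6 to day 14 from 0 to 1. Without a filter the difference of BMP4 effects, OA against ODR at day 6 and OA from day 6 to day 14 went from 1 to 0. With trend and robust moderation, the difference of BMP4 effects and OB against ODR with BMP4 went from 1 to 0, and OA from day 6 to day 14 from 1 to 2. Among the 80 fits with 0 members called (limma), 0 to 6 members had an unadjusted p below 0.05. The cause of these shifts was not tested.

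Leaving out 1 library, the members called ranged from 3 to 7 for BMP4 in OB, 4 to 5 for BMP4 in ODR, 0 to 4 for the difference of these effects and 0 to 1 for OB against ODR with BMP4. OB against ODR gave 0 to 1 at day 1, 0 to 2 at day 6 and 4 to 6 at day 14. OA against ODR gave 0 at day 1, 0 to 1 at day 6 and 1 to 3 at day 14, and OB against OA 0 to 1, 1 and 4 to 6. From day 1 to day 6 the range was 3 to 7 in ODR, 4 to 5 in OA and 4 to 6 in OB, and from day 6 to day 14 it was 0 to 1, 0 to 1 and 3 to 5. The lone ODR library with BMP4 could not be left out, and a group left with a lone library takes its spread from the other groups. Without the library labelled OA day 14 replicate 2, 2 members were called for OB against ODR at day 6, 1 for ODR from day 6 to day 14 and 0 for OA from day 6 to day 14.

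Replicate numbers are not stated to mark a batch, and libraries of the same number deviated together only weakly (r from -0.16 to 0.32 over 100 pairs, median 0.04, against -0.02 over 202 pairs of different numbers). With a replicate block, members called went from 1 to 0 for the difference of BMP4 effects, OB against ODR at day 1 and OA against ODR at day 6, and stayed within 1.5 times elsewhere. Under the block, Ibsp (1.85, adjusted p = 0.143) and Sox6 (-0.96, adjusted p = 0.104) lost their calls for BMP4 in OB and Acan gained one (1.68, adjusted p = 0.0168). Depth is unknown, so values near 0, such as those of Sp7, Ibsp, Bglap and Acan, carry an error that could not be given.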
